A study of Mus musculus with 2 samples.

Results

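Fibroblast growth factors (FGF), bone morphogenetic proteins (BMP), transforming growth factors beta (TGF-beta) and the related activins and growth and differentiation factors (GDF), with their receptors, antagonists and SMAD proteins, were followed in medullary thymic epithelial cells (mTEC). The genes were chosen by symbol alone: those beginning with Fgf, Fgfr, Bmp, Tgfb, Smad, Gdf or Acvr, without Fgfbp, Fgfr1op, Tgfbi and Tgfbrap1, plus Inha, Inhba, Inhbb, Nog, Grem1, Chrd and Fst. This gave 81 of the 23411 genes measured, and all 81 had reads in both libraries. The groups compared were mTEC with high and mTEC with low surface MHC class II, sorted by flow cytometry from the thymus of B6 mice and sequenced as poly-A RNA. Neither the age of the mice nor any engineered allele or treatment is given in the labels. Each group is 1 library, and both came from a pool of 3 mice. Gene reads totalled 138368543 for MHC-II high and 56077471 for MHC-II low. There is therefore no replicate check, every difference is between these 2 libraries, and the 95% intervals below cover counting error only, as reads without molecular identifiers are not independent molecules.

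FGFs bind tyrosine kinase receptors together with heparan sulfate, and signal through the MAP kinase cascade. TGF-beta, activin, BMP and GDF dimers bring together type I and type II serine/threonine kinase receptors, which phosphorylate receptor SMADs that join Smad4 and enter the nucleus. In the thymus, Fgf7 and Fgf10 from mesenchyme act on epithelial Fgfr2, Bmp4 from mesenchyme and endothelium acts on the epithelial programme driven by Foxn1, and TGF-beta receptor signalling in epithelium restrains the medulla.

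Levels are given as CPM, read counts relative to the library total after TMM scaling, which evens out differences in RNA composition. Genes with a mean of at least 1 CPM over both libraries were compared. A gene was called higher or lower when the whole 95% interval of its ratio, MHC-II high over MHC-II low, lay beyond 2-fold. Of the 81 genes, 67 passed this minimum and 14 did not. Among the 67, 16 were called higher (23.9%) and 11 lower (16.4%) in MHC-II high, while over all 17441 genes past the minimum 16.4% were called higher and 9.25% lower. Of the 67, Fgf3, Bmp5 and Bmp8a passed the minimum only through the MHC-II high library and Gdf9 only through the MHC-II low one, so a difference was built into their passing. With these 4 set aside, 13 of 63 were higher and 11 lower. No share over all genes is given for genes past the minimum in both libraries, so the shares over the 17441 genes are not like for like with these counts. The median log2 ratio of the 67 was −0.15, against 0.11 over all genes past the minimum.

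Of 28 secreted ligands past the minimum in both libraries (44 in all), 8 were higher in MHC-II high and 2 were lower, with a median log2 ratio of 0.42. Of the 18 receptors, each past the minimum in both libraries, 1 was higher and 6 were lower, with a median of −0.64. With the 4 ligands that passed through 1 library alone, Fgf3, Bmp5, Bmp8a and Gdf9, the ligand counts were 11 higher and 2 lower of 32. The ligand shares were thus 34.4% higher and 6.25% lower and the receptor shares 5.56% and 33.3%, against 16.4% and 9.25% over all 17441 genes. The authors' deposited RPKM imply larger read totals, called the RPKM read totals here, which raise every log2 ratio by 0.88. With them 13 of 25 ligands were higher and 0 lower, and 2 of 16 receptors were higher and 4 lower. Over all 16016 genes past the minimum there, 7232 were higher and 471 lower, so the ligand share higher was not far above that of all genes. The receptor median turned to 0.20, against 1.45 for the ligands and 1.0 for all genes. These counts describe lists assembled with earlier results of the same libraries known, and the difference between ligands and receptors was not tested.

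**Figure D1:**
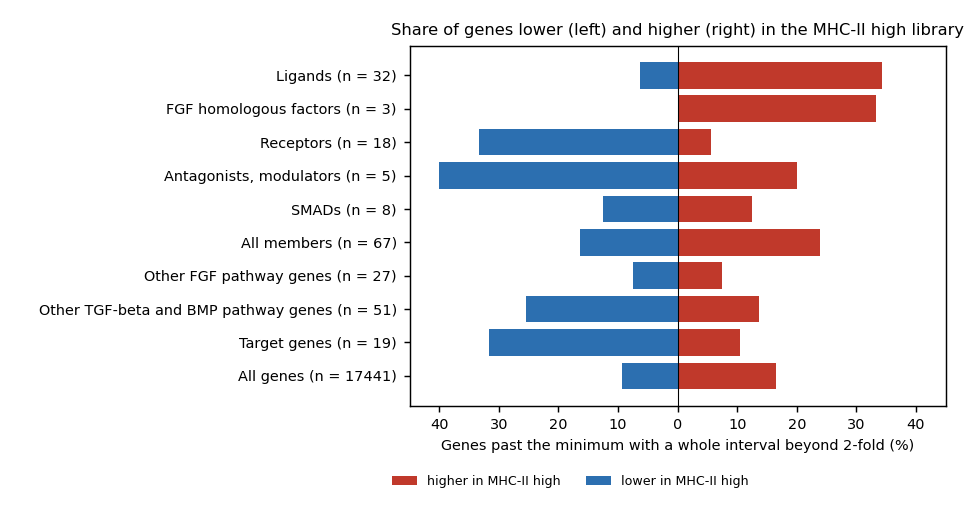
Share of genes past the expression minimum that were called higher (red, right) or lower (blue, left) in MHC-II high, in percent, for each group of genes and for all 17441 genes, with the number past the minimum in brackets. The bars show 11 higher and 2 lower of 32 ligands and 1 higher and 6 lower of 18 receptors, and 3 of the 11 higher ligands (Fgf3, Bmp5 and Bmp8a) passed the minimum only through MHC-II high.

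**Figure D2:**
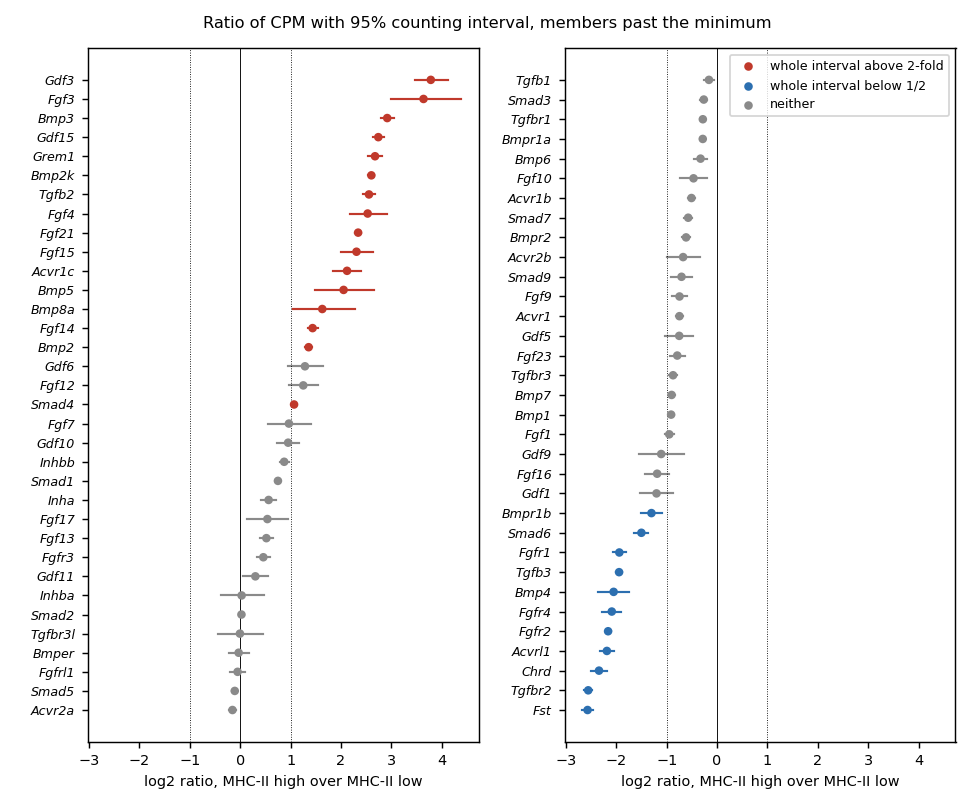
Log2 ratio of CPM, MHC-II high over MHC-II low, for the 67 genes past the minimum, ordered by ratio, with bars for the 95% counting interval and dotted lines at 2-fold. Red and blue mark the 16 genes called higher and the 11 called lower. The log2 ratios run from 3.78 for Gdf3 to −2.57 for Fst.

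Cells other than mTEC were traced with marker lists. Their counts stand beside shares of 16.4% called higher and 9.25% called lower over all genes past the minimum. The epithelial genes Epcam and Krt8 were near equal in the libraries (log2 ratios of 0.20 and −0.20), the level of Aire was 29.4-fold above the MHC-II low level (27.7 to 31.3) and the basal keratin gene Krt5 was at 800.1 CPM in MHC-II high against 5628 CPM in MHC-II low, so both libraries carried mTEC transcripts. Each of 8 endothelial markers was lower in MHC-II high, and together they summed to 83.5 CPM in MHC-II high against 557 CPM in MHC-II low. Of 7 fibroblast markers 5 were lower and 0 higher, summing to 198 CPM in MHC-II high against 1044 CPM in MHC-II low. Of 5 mural cell markers Acta2 was lower and 0 were higher (565 CPM in MHC-II high against 834 CPM in MHC-II low in sum). The direction of this sum came from Acta2, at 50.6 CPM in MHC-II high against 444 CPM in MHC-II low. Des had a log2 ratio of −0.94, while Myh11, Rgs5 and Cspg4 had 0.85, 0.54 and 0.27. Dendritic cell and macrophage markers went the other way, with 5 of 7 higher and 0 lower (449 CPM in MHC-II high against 97.9 CPM in MHC-II low). Lyz2 made up most of this sum, at 377 CPM in MHC-II high against 71.1 CPM in MHC-II low. Itgax and Itgam, with log2 ratios of −0.63 and 0.98, were not called. Of 3 B cell markers 2 were higher (9.95 CPM in MHC-II high against 3.44 CPM in MHC-II low), and of 5 thymocyte markers 1 was higher and 1 lower (31.1 CPM in MHC-II high against 40.1 CPM in MHC-II low). The globin-led erythroid list had 2 of 3 lower (62.8 CPM in MHC-II high against 2055 CPM in MHC-II low). Of 5 tuft-like markers 4 were lower (350.3 CPM in MHC-II high against 1146 CPM in MHC-II low), and of 4 cortical epithelial markers Ccl25 was higher and 0 were lower (385 CPM in MHC-II high against 126 CPM in MHC-II low). No marker on these lists was at 0 reads in either library. In sorted bulk RNA, fewer cells of a type and less RNA per cell cannot be told apart.

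Among the endocrine FGFs, which circulate and need Klotho co-receptors, Fgf21 stood out by its level. Fgf21, a metabolic hormone best known from liver, was at 246 CPM (36066 reads) in the MHC-II high and 48.6 CPM (2568 reads) in the MHC-II low library, a ratio of 5.06 with an interval of 4.86 to 5.27. Per kilobase of transcript it was the most abundant of the 81 genes in both libraries. On the CPM scale it was at 259.6 reads per kilobase in MHC-II high and 51.3 in the MHC-II low library. In the authors' deposited table its RPKM was 178 in the MHC-II high and 19.1 in the MHC-II low library, a ratio of 9.35 that differs from 5.06 through the read totals. The deposited transcript reads came to 89.5% of the RPKM read total in MHC-II high and 52% in MHC-II low. Fgf15, the ileal hormone that represses bile acid synthesis, was at 8.43 CPM (1236 reads) in the MHC-II high and 1.70 CPM (90 reads) in the MHC-II low library and 4.95-fold above the MHC-II low level (4.0 to 6.2). Fgf23, the bone hormone that lowers phosphate, was at 6.18 CPM in MHC-II high against 10.7 CPM in MHC-II low, a log2 ratio of −0.79 that was not called. Their co-receptor genes Kl and Klb were low, Kl at 4.02 CPM in MHC-II high against 3.89 CPM in MHC-II low and Klb under the minimum at 0.743 CPM in MHC-II high against 0.926 CPM in MHC-II low.

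Paracrine FGFs act on neighbouring cells. Of 15 such genes 8 passed the minimum, 2 of them higher and 0 lower. Over all genes past the minimum 16.4% were called higher and 9.25% lower. Of the 2, Fgf3 passed the minimum only through MHC-II high. Fgf3, a ligand of inner ear and tooth development, was at 4.47 CPM (656 reads) in the MHC-II high and 0.359 CPM (19 reads) in the MHC-II low library, and Fgf4, known from the early embryo and limb bud, was at 7.42 CPM (1089 reads) in the MHC-II high and 1.29 CPM (68 reads) in the MHC-II low library. The ratios were 12.4 (7.91 to 20.8) for Fgf3 and 5.77 (4.52 to 7.49) for Fgf4. Only 19 reads of Fgf3 were in the MHC-II low library, which leaves its interval wide. Fgf1, which binds all FGF receptors, had the most reads of the paracrine genes, at 18.7 CPM (2737 reads) in the MHC-II high and 36.0 CPM (1905 reads) in the MHC-II low library, with a log2 ratio of −0.95. Fgf9, which signals between epithelium and mesenchyme in several organs, was at 6.58 CPM in MHC-II high against 11.0 CPM in MHC-II low. The interval of Fgf1 reached across 2-fold and that of Fgf9 lay within it, so neither was called.

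The ligands known to act on thymic epithelium had few reads. Fgf7 was at 2.11 CPM in MHC-II high against 1.08 CPM in MHC-II low with an interval of 1.47 to 2.64, and Fgf10 was at 2.45 CPM in MHC-II high against 3.38 CPM in MHC-II low with one of 0.603 to 0.870. Neither was called. Fgf16 had 2.11 CPM in MHC-II high against 4.82 CPM in MHC-II low and Fgf17 1.79 CPM in MHC-II high against 1.23 CPM in MHC-II low, with log2 ratios of −1.19 and 0.54. The interval of Fgf16 just reached 2-fold, and it was called lower with TMM over genes past the minimum.

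Under the minimum were 7 paracrine FGFs. Fgf20 had 169 reads in MHC-II high and 10 in MHC-II low, Fgf18 137 reads in MHC-II high and 37 in MHC-II low, Fgf5 57 reads in MHC-II high and 63 in MHC-II low, Fgf8 47 reads in MHC-II high and 21 in MHC-II low, Fgf6 41 reads in MHC-II high and 40 in MHC-II low, Fgf2 35 reads in MHC-II high and 17 in MHC-II low and Fgf22 2 reads in MHC-II high and 5 in MHC-II low. For Fgf20 the interval lay above 2-fold (3.23 to 12.9) and for Fgf5 below 1/2 (0.224 to 0.474), on levels of at most 1.19 CPM in either library.

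Fgf3, Fgf4 and Fgf15 are consecutive genes on chromosome 7 in the RefSeq gene table of assembly GRCm38.p6. All 3 were called higher, with log2 ratios of 3.64, 2.53 and 2.31. Fgf3 passed the minimum only through MHC-II high, so a difference was built into its passing, while Fgf4 and Fgf15 passed in both libraries. The measured genes on either side were not called: Ano1 at 0.61, Fadd at −0.41 and Ppfia1 at 0.18 before Fgf3, and LTO1 at 0.31 and Ccnd1 at −0.47 after Fgf15. The small RNA gene Bc1, which lies next to Fgf15, had 0 reads in both libraries. The difference between the run and its flanks was not tested, and no rule set in advance chose this region.

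Promoter sequences are shown for Fgf21, as the most abundant gene, and for Fgf3 and Fgf4, as neighbours that were both higher. They come from RefSeq on GRCm38.p6, not the authors' build, run 5′ to 3′ on the gene's strand from 250 bases before to 50 after the start, and lie at chr7:45615441-45615740 (minus strand), chr7:144838362-144838661 (plus) and chr7:144861136-144861435 (plus). Capitals mark TATAAA and the GC box letters GGGCGG, searched on both strands, so CCGCCC is also marked.
Fgf21: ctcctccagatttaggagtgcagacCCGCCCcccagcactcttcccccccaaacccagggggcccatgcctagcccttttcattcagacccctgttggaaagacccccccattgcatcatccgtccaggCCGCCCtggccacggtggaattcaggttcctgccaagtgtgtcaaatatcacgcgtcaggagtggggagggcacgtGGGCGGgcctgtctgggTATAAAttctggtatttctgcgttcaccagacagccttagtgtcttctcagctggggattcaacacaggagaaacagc
Fgf3: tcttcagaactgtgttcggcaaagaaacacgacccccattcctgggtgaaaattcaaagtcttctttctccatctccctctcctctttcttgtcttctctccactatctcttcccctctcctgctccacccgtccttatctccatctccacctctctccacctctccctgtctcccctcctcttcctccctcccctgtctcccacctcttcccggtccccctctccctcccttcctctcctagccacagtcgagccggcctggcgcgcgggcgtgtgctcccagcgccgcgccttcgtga
Fgf4: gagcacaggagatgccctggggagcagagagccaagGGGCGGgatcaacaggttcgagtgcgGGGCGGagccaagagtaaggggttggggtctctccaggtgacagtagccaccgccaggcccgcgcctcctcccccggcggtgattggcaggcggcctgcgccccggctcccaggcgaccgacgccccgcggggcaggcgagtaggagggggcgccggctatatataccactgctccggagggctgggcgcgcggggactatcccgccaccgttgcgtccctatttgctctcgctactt

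The Fgf21 stretch holds both motifs, that of Fgf4 holds GGGCGG and that of Fgf3 holds neither. CG dinucleotides numbered 9 in Fgf21, 14 in Fgf3 and 28 in Fgf4, so the neighbours that moved together differed in this respect. Of the 81 genes 58 had a promoter in the table, the first-listed start being used. GGGCGG was in 70.7% of these 58 and in 35.9% of all 27025 genes with an entry, and TATAAA in 13.8% and 14.2%. The 27025 entries outnumber the 23411 genes measured and were not limited to genes past the minimum. The shares and CG counts over all entries are therefore not like for like with those of the members. Among genes called higher 7 of 11 held GGGCGG and 2 held TATAAA, and among those called lower 4 of 7 held GGGCGG and 1 held TATAAA. The median CG count was 14 in the higher, 15 in the lower and 27 in the 29 uncalled genes past the minimum, against 7 over all entries. GGGCGG was in 79.3% of those uncalled genes. CAGAC, letters bound by SMAD proteins, was in 7 of the 11 higher and 3 of the 7 lower promoters and in 37.9% of the uncalled genes, against 49.7% of all entries. These differences were not tested. These matches describe the letters in the windows and no binding was measured.

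**Figure D3:**
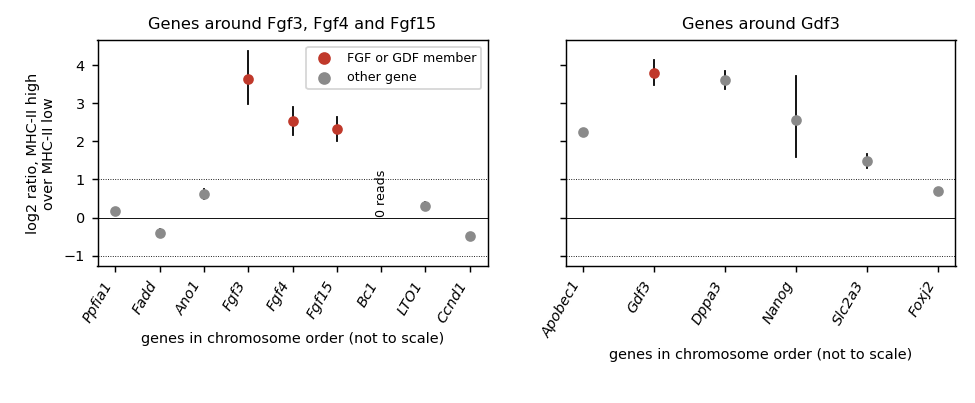
Log2 ratio, MHC-II high over MHC-II low, of genes in chromosome order around Fgf3, Fgf4 and Fgf15 (left) and from Apobec1 past Gdf3 to Foxj2 (right), with 95% counting intervals and dotted lines at 2-fold. Distances are not to scale. Fgf3, Fgf4 and Fgf15 lie above flanks that are within 2-fold, while Apobec1, Dppa3, Nanog and Slc2a3 beside Gdf3 lie above 2-fold too. Fgf3 passed the minimum only through MHC-II high, and Nanog was under it.

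FGF homologous factors stay in the cell and bind sodium channels rather than receptors. Of 3 past the minimum, Fgf14 was called, at 48.2 CPM (7072 reads) in the MHC-II high and 17.8 CPM (942 reads) in the MHC-II low library and 2.71-fold above the MHC-II low level (2.53 to 2.90). Fgf13 was at 18.4 CPM (2703 reads) in the MHC-II high and 12.9 CPM (680 reads) in the MHC-II low library. Fgf12 was at 5.45 CPM in MHC-II high against 2.29 CPM in MHC-II low, and the lower limit for Fgf12 was 1.96-fold, just short of the threshold. Fgf12 was called higher with unscaled and with RPKM read totals, and Fgf13 with the RPKM read totals. Fgf11 was under the minimum with 119 reads in MHC-II high and 56 in MHC-II low.

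Of the 5 FGF receptor genes, MHC-II high had 3 at lower and 0 at higher levels. The shares over all genes past the minimum were 9.25% lower and 16.4% higher. Fgfr2, the receptor of Fgf7 and Fgf10, led by level, at 35.5 CPM (5205 reads) in the MHC-II high and 159 CPM (8405 reads) in the MHC-II low library. It was 4.48-fold below the MHC-II low level (4.33 to 4.64), and per kilobase it was rank 26 of the 81 genes in MHC-II high and rank 4 in MHC-II low. Fgfr1, common in mesenchyme, was at 5.74 CPM (842 reads) in the MHC-II high and 22 CPM (1165 reads) in the MHC-II low library and 3.84-fold below the MHC-II low level (3.51 to 4.20). Fgfr4, the liver-type receptor that pairs with Klb, was at 2.71 CPM (398 reads) in the MHC-II high and 11.6 CPM (611 reads) in the MHC-II low library and 4.26-fold below the MHC-II low level (3.75 to 4.84). The 2 other genes were nearer to equal. Fgfr3, the cartilage receptor, was at 16.7 CPM (2451 reads) in the MHC-II high and 12.2 CPM (643 reads) in the MHC-II low library with bounds of 1.26 to 1.5, and Fgfrl1, a receptor-like protein without a kinase domain, at 9.05 CPM in MHC-II high against 9.38 CPM in MHC-II low. The call of Fgfr1 was lost with the RPKM read totals, where its log2 ratio was −1.06, and Fgfr3 was called higher there with one of 1.34. Endothelial and fibroblast markers were lower in the same library (83.5 in MHC-II high against 557 in MHC-II low and 198 CPM in MHC-II high against 1044 CPM in MHC-II low in sum), and their part in these ratios was not tested.

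**Figure D4:**
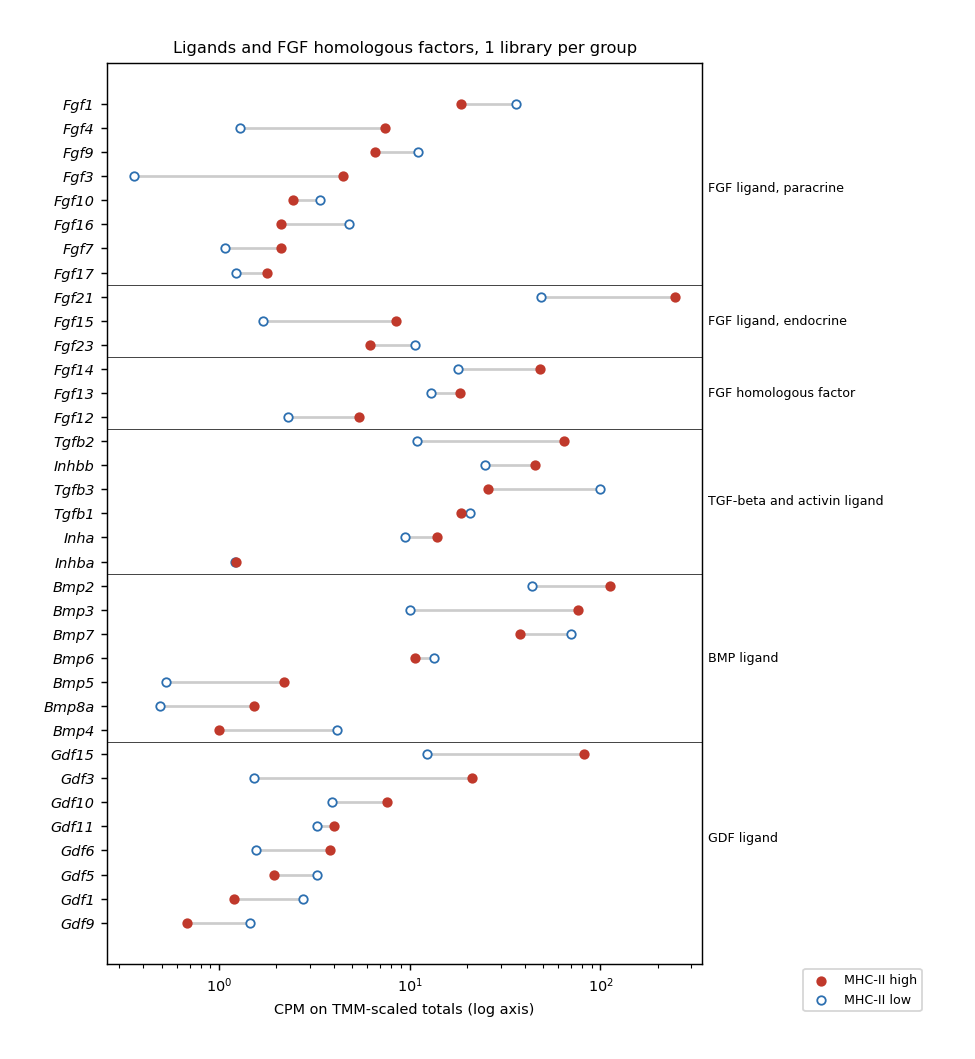
CPM (log axis) of each ligand and FGF homologous factor past the minimum in the MHC-II high (filled red) and MHC-II low library (open blue), grouped by role and ordered by level. Fgf21 (246 CPM in MHC-II high against 48.6 CPM in MHC-II low) and Gdf15 (81.9 CPM in MHC-II high against 12.3 CPM in MHC-II low) lie to the right with the high library ahead, while Tgfb3 (25.7 CPM in MHC-II high against 98.9 CPM in MHC-II low) is reversed.

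The TGF-beta isoforms split. Tgfb2 was at 64.2 CPM (9425 reads) in the MHC-II high and 10.9 CPM (578 reads) in the MHC-II low library and 5.88-fold above the MHC-II low level (5.40 to 6.41), whereas Tgfb3 was at 25.7 CPM (3768 reads) in the MHC-II high and 98.9 CPM (5231 reads) in the MHC-II low library and 3.85-fold below the MHC-II low level (3.69 to 4.02). Tgfb1, the main isoform of immune regulation, was at 18.5 CPM in MHC-II high against 20.7 CPM in MHC-II low and not called (interval 0.833 to 0.960). Per kilobase of transcript on the CPM scale, Tgfb2 was above Tgfb3 in MHC-II high and below it in MHC-II low. Tgfb2 was at 13.6 reads per kilobase in MHC-II high and 2.31 in the MHC-II low library, and Tgfb3 at 7.59 reads per kilobase in MHC-II high and 29.2 in the MHC-II low library. The call of Tgfb3 was lost with the RPKM read totals, where its log2 ratio was −1.06.

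None of the activin and inhibin subunit genes was called. Inhbb, which forms activin B, was at 45.5 CPM (6682 reads) in the MHC-II high and 24.9 CPM (1316 reads) in the MHC-II low library, a ratio of 1.83 (1.73 to 1.94). Inha, the subunit that turns activins into inhibins, was at 13.9 CPM in MHC-II high against 9.43 CPM in MHC-II low, and Inhba was at 1.23 CPM in MHC-II high against 1.21 CPM in MHC-II low. Fst codes for follistatin, which traps activins, and had the lowest ratio of the 67 genes. It was at 7.75 CPM (1137 reads) in the MHC-II high and 46.0 CPM (2435 reads) in the MHC-II low library and 5.94-fold below the MHC-II low level (5.53 to 6.38). With the RPKM read totals Inhbb and Inha passed 2-fold.

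BMP ligands included 4 genes called higher and 1 lower among 7 past the minimum (57.1% and 14.3%), against 16.4% and 9.25% over all genes. Bmp2, a strong inducer of bone and of Id genes, was at 112 CPM (16503 reads) in the MHC-II high and 43.9 CPM (2321 reads) in the MHC-II low library and 2.56-fold above the MHC-II low level (2.45 to 2.68). Bmp3, which opposes other BMPs in bone, was at 76.1 CPM (11169 reads) in the MHC-II high and 10.1 CPM (533 reads) in the MHC-II low library and 7.56-fold above the MHC-II low level (6.93 to 8.26). Bmp5 had 322 reads in MHC-II high and 28 in MHC-II low, and Bmp8a, a germ cell factor, had 223 reads in MHC-II high and 26 in MHC-II low, with intervals of 2.81 to 6.34 and 2.06 to 4.84. Both passed the minimum only through the MHC-II high library. They fell under it with the RPKM read totals, and Bmp8a did so with TMM over genes past the minimum too. Bmp4, the ligand with a known part in thymic epithelium, went the other way. It was at 1.0 CPM (147 reads) in the MHC-II high and 4.16 CPM (220 reads) in the MHC-II low library and 4.15-fold below the MHC-II low level (3.35 to 5.15), and its call was lost with the RPKM read totals.

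Bmp7, active in kidney and many epithelia, was at 37.7 CPM in MHC-II high against 70.4 CPM in MHC-II low and Bmp6, which induces hepcidin, at 10.6 CPM in MHC-II high against 13.4 CPM in MHC-II low, with log2 ratios of −0.90 and −0.33. Neither was called. Another 3 BMP genes were under the minimum. Bmp8b, a near copy of Bmp8a, had 159 reads in MHC-II high and 8 in MHC-II low, the heart gene Bmp10 49 reads in MHC-II high and 54 in MHC-II low and the oocyte gene Bmp15 47 reads in MHC-II high and 20 in MHC-II low. The interval of Bmp8b lay above 2-fold (3.55 to 16.9) and that of Bmp10 below 1/2 (0.218 to 0.491). Reads of Bmp8a and Bmp8b may be split between them, and their values are uncertain.

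GDF ligands held the largest ratio of the 67 genes. Gdf3, a Nodal-related factor of the early embryo and of adipose tissue, was at 21.1 CPM (3092 reads) in the MHC-II high and 1.53 CPM (81 reads) in the MHC-II low library and 13.8-fold above the MHC-II low level (11.0 to 17.4). Gdf15, a stress-induced hormone that lowers appetite through the brainstem, was at 81.9 CPM (12015 reads) in the MHC-II high and 12.3 CPM (648 reads) in the MHC-II low library and 6.68-fold above the MHC-II low level (6.18 to 7.25), and it was the gene of rank 2 among the 81 per kilobase in MHC-II high and of rank 16 in MHC-II low. No GDF gene was called lower, where 9.25% of all genes past the minimum were. Gdf10 was at 7.57 CPM in MHC-II high against 3.91 CPM in MHC-II low, Gdf11, which patterns the axial skeleton, at 4.03 CPM in MHC-II high against 3.27 CPM in MHC-II low, and Gdf6, a joint and eye factor, at 3.82 CPM in MHC-II high against 1.57 CPM in MHC-II low with an interval of 1.93 to 3.11. Gdf6 was called with unscaled and RPKM read totals, and Gdf10 with the RPKM read totals. Gdf5, the joint factor, was at 1.94 CPM in MHC-II high against 3.27 CPM in MHC-II low, the oocyte gene Gdf9 at 0.675 CPM in MHC-II high against 1.46 CPM in MHC-II low and Gdf1 at 1.2 CPM in MHC-II high against 2.76 CPM in MHC-II low. The listed Gdf1 transcript overlaps Cers1, which had 164 reads in MHC-II high and 137 in MHC-II low, close to the 176 in MHC-II high and 146 in MHC-II low of Gdf1, so its value is uncertain. The vascular ligand Gdf2 (145 reads in MHC-II high and 39 in MHC-II low) and Gdf7 (41 reads in MHC-II high and 6 in MHC-II low) were under the minimum.

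Gdf3, unlike the Fgf3 run, lay next to other genes that were higher. This was not particular to Gdf3, as Fermt1 and Hao1 beside Bmp2 and Prkg2 beside Bmp3 were also called higher. The neighbours of Gdf15 were not called. No rule set in advance chose the regions shown, and 16.4% of all genes past the minimum were called higher. On chromosome 6 it had the RNA-editing gene Apobec1 (ratio of 4.73-fold, 4.51 to 4.95) on one side and the germ cell gene Dppa3 (12.1-fold, 10.3 to 14.3) and the pluripotency gene Nanog (5.85-fold, 3.00 to 13.0) on the other. Nanog was under the minimum. Further out, Slc2a3 and Rimklb had log2 ratios of 1.49 and 2.25 and were called higher, while Foxj2 at 0.70 and the matrix gene Mfap5 at −1.05 were not called. The difference between these genes was not tested. Most dendritic cell, macrophage and B cell markers were also higher in MHC-II high (449 in MHC-II high against 97.9 in MHC-II low and 9.95 CPM in MHC-II high against 3.44 CPM in MHC-II low in sum, the first led by Lyz2), and their part in these ratios was not tested.

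Secreted antagonists were called in both directions. Grem1, gremlin, binds and blocks BMPs. It was at 52.9 CPM (7762 reads) in the MHC-II high and 8.28 CPM (438 reads) in the MHC-II low library and 6.39-fold above the MHC-II low level (5.80 to 7.05). Chordin, the Chrd product, also binds BMPs, but Chrd was at 3.69 CPM (541 reads) in the MHC-II high and 18.7 CPM (990 reads) in the MHC-II low library and 5.08-fold below the MHC-II low level (4.57 to 5.65). Noggin was scarce, with Nog at 70 reads in MHC-II high and 10 in MHC-II low. The most reads over both libraries among these genes were those of Bmp1, the protease that cleaves chordin and procollagen, at 50.8 CPM (7451 reads) in the MHC-II high and 95.6 CPM (5056 reads) in the MHC-II low library, with a log2 ratio of −0.91, which was not called. Bmper, a modulator of BMPs in vessels, was at 5.44 CPM in MHC-II high against 5.56 CPM in MHC-II low. Fibroblast markers summed to 198 CPM in MHC-II high against 1044 CPM in MHC-II low and mural markers to 565 CPM in MHC-II high against 834 CPM in MHC-II low, while single genes of these lists, Pdgfrb, Myh11 and Rgs5, had log2 ratios of 0.92, 0.85 and 0.54. Their part in the ratios of Grem1 and Chrd was not tested.

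**Figure D5:**
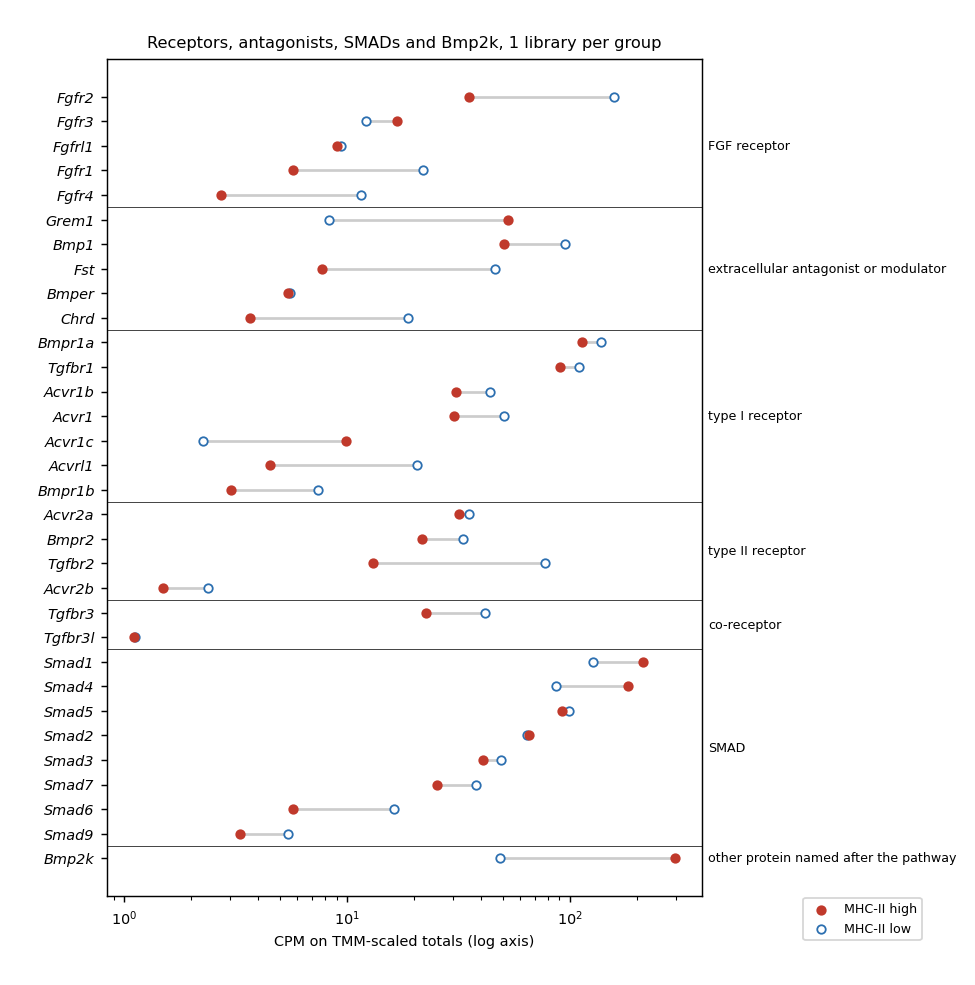
CPM (log axis) of each receptor, antagonist or modulator, SMAD gene and Bmp2k in the MHC-II high (filled red) and MHC-II low library (open blue), grouped by role. The longest gaps to the left are those of Tgfbr2 (13.1 CPM in MHC-II high against 77.1 CPM in MHC-II low), Fst (7.75 CPM in MHC-II high against 46.0 CPM in MHC-II low) and Chrd (3.69 CPM in MHC-II high against 18.7 CPM in MHC-II low), and Grem1 (52.9 CPM in MHC-II high against 8.28 CPM in MHC-II low) runs to the right.

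Type II receptors bind ligand and activate the type I chain. Tgfbr2, the type II receptor of TGF-beta, was at 13.1 CPM (1922 reads) in the MHC-II high and 77.1 CPM (4080 reads) in the MHC-II low library and 5.89-fold below the MHC-II low level (5.58 to 6.22). The other 3 were not called. Acvr2a, an activin receptor gene, was at 31.8 CPM (4662 reads) in the MHC-II high and 35.4 CPM (1870 reads) in the MHC-II low library. Bmpr2, the BMP type II receptor gene, was at 21.7 CPM (3179 reads) in the MHC-II high and 33.2 CPM (1756 reads) in the MHC-II low library, and Acvr2b at 1.49 CPM in MHC-II high against 2.38 CPM in MHC-II low, with log2 ratios of −0.15, −0.62 and −0.67. The co-receptor genes Tgfbr3, whose product betaglycan presents Tgfb2, and Tgfbr3l, a relative, were not called. Tgfbr3 was at 22.8 CPM (3339 reads) in the MHC-II high and 41.7 CPM (2206 reads) in the MHC-II low library and Tgfbr3l at 1.11 CPM (163 reads) in the MHC-II high and 1.12 CPM (59 reads) in the MHC-II low library.

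Of 7 type I receptor genes, 1 was higher and 2 were lower (14.3% and 28.6%), against 16.4% and 9.25% over all genes past the minimum. Bmpr1a and Tgfbr1, the widely used BMP and TGF-beta receptors, had the most reads and differed little. Bmpr1a was at 113 CPM (16625 reads) in the MHC-II high and 138 CPM (7300 reads) in the MHC-II low library, a log2 ratio of −0.28, and Tgfbr1 at 90.9 CPM (13335 reads) in the MHC-II high and 111 CPM (5849 reads) in the MHC-II low library, a log2 ratio of −0.28. Tgfbr1 and Tgfbr2, which work as a pair, therefore had log2 ratios of −0.28 and −2.56, and the difference between them was not tested. Acvr1c, ALK7, a receptor for Nodal and Gdf3, was higher, at 9.86 CPM (1447 reads) in the MHC-II high and 2.27 CPM (120 reads) in the MHC-II low library, a ratio of 4.35 (3.61 to 5.28). Acvrl1, ALK1, the endothelial receptor of Gdf2 and Bmp10, was at 4.53 CPM (665 reads) in the MHC-II high and 20.6 CPM (1092 reads) in the MHC-II low library and 4.55-fold below the MHC-II low level (4.13 to 5.02). Bmpr1b was 2.47-fold below the MHC-II low level (2.15 to 2.83) at 3.02 CPM in MHC-II high against 7.45 CPM in MHC-II low, a call lost with unscaled totals (log2 ratio −1.13) and with the RPKM read totals. Acvr1 and Acvr1b, at 30.2 in MHC-II high against 50.7 in MHC-II low and 30.9 CPM in MHC-II high against 44.0 CPM in MHC-II low, were not called. The log2 ratios of the 8 endothelial markers ran from −1.10 for Tek to −6.82 for Emcn, and their part in the ratios of Acvrl1 and Tgfbr2 was not tested.

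Of the 8 SMAD genes, 1 was higher and 1 was lower (12.5% each). These shares were near those over all genes past the minimum, 16.4% higher and 9.25% lower. Smad1, a receptor SMAD of the BMP branch, had the most reads, at 213 CPM (31234 reads) in the MHC-II high and 127 CPM (6702 reads) in the MHC-II low library, a log2 ratio of 0.75. Smad4, the partner shared by both branches, was at 182 CPM (26688 reads) in the MHC-II high and 86.7 CPM (4587 reads) in the MHC-II low library and 2.10-fold above the MHC-II low level (2.03 to 2.16). That call was lost when TMM factors were computed over genes past the minimum (log2 ratio 0.95). Smad5, Smad2 and Smad3 were near equal, at 92.4 in MHC-II high against 99.6 in MHC-II low, 65.8 in MHC-II high against 64.7 in MHC-II low and 40.9 CPM in MHC-II high against 49.1 CPM in MHC-II low. Smad6, which inhibits BMP signalling and is induced by it, was at 5.72 CPM (839 reads) in the MHC-II high and 16.2 CPM (857 reads) in the MHC-II low library and 2.83-fold below the MHC-II low level (2.57 to 3.12). Its call was lost with the RPKM read totals, where Smad1 was called higher (log2 ratio 1.63), so that 2 SMAD genes were higher and 0 lower. Over all 16016 genes past the minimum with those totals, 7232 were higher and 471 lower. Smad7, the inhibitor of the TGF-beta branch, was at 25.5 CPM in MHC-II high against 37.9 CPM in MHC-II low and Smad9 at 3.33 CPM in MHC-II high against 5.43 CPM in MHC-II low, and neither was called.

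The symbol rule also took in Bmp2k, a kinase named for its induction by BMP2 and linked to clathrin and autophagy rather than to SMADs. It was at 297 CPM (43552 reads) in the MHC-II high and 48.9 CPM (2585 reads) in the MHC-II low library and 6.07-fold above the MHC-II low level (5.84 to 6.32).

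Several values carry limits of counting. For 14 genes with at least 2 transcripts of 100 reads or more, log2 ratios across a gene's transcripts differed by 0.32 in Gdf1 and by 0.06 or less in the other 13. Both Fgfr2 transcripts, for instance, gave −2.16. Isoforms share reads in these tables, so isoform use cannot be read from them. The library kit was unstranded, per the labels, and 6 called genes overlap another measured gene in GRCm38.p6. Bmp2k overlaps Paqr3, which had 1017 reads in MHC-II high and 174 in MHC-II low. Fgf14 overlaps Itgbl1, with 528 reads in MHC-II high and 51 in MHC-II low. Chrd overlaps Thpo, with 197 reads in MHC-II high and 232 in MHC-II low, so that overlap is large beside the reads of Chrd itself. Bmp8a overlaps Oxct2a, with 46 reads in MHC-II high and 19 in MHC-II low, the second of these close to the 26 of Bmp8a. Acvr1c overlaps Gm13544, with 30 reads in MHC-II high and 43 in MHC-II low, beside 120 of Acvr1c in MHC-II low. Bmp4 overlaps Gm15217, with 2 reads in MHC-II high and 5 in MHC-II low. Among genes not called, Gdf9, Bmp6 and Fgf1 overlap genes with more reads in both libraries (Uqcrq, Txndc5 and Arhgap26), and their values are uncertain. Of the 40 genes not called, 21 with a negative log2 ratio turned positive with the RPKM read totals. These were Acvr1, Acvr1b, Acvr2a, Acvr2b, Bmp6, Bmper, Bmpr1a, Bmpr2, Fgf10, Fgf23, Fgf9, Fgfrl1, Gdf5, Smad3, Smad5, Smad7, Smad9, Tgfb1, Tgfbr1, Tgfbr3 and Tgfbr3l. Of these 21, Acvr2a, Bmper, Fgfrl1, Smad5, Tgfb1 and Tgfbr3l also turned positive with unscaled totals, and Inhba and Smad2 turned negative with TMM over genes past the minimum.

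Other genes of the same pathways were taken from lists of cofactors, inhibitors and common targets. The FGF list had 27 genes past the minimum, 2 called higher and 2 called lower (7.41% each), and its median log2 ratio was −0.26. Both shares were under those over all genes past the minimum, 16.4% higher and 9.25% lower. The heparan sulfate carriers Sdc4, Sdc1 and Gpc1 had the most reads, at 336 in MHC-II high against 462 in MHC-II low, 194 in MHC-II high against 348 in MHC-II low and 193 CPM in MHC-II high against 288 CPM in MHC-II low, and were not called. Fgfbp3, which releases FGFs from matrix, was 2.84-fold above the MHC-II low level (2.40 to 3.38). Flrt2, an adhesion protein that binds FGF receptors, was 4.47-fold below the MHC-II low level (4.19 to 4.77), and Ext1, which builds heparan sulfate, was 2.60-fold below the MHC-II low level (2.46 to 2.74). Spry4, an FGF-induced inhibitor chosen after its value was seen, was the second gene called higher, at 11.5 CPM in MHC-II high against 4.76 CPM in MHC-II low. Other inhibitors on the list did not share this call. Spry1, Spry2, Il17rd and Dusp6 had log2 ratios of −0.78, 0.49, −0.96 and −0.80, and Spred1, Spred2 and Spred3 −0.13, 0.43 and 0.10.

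The TGF-beta and BMP list had 51 genes past the minimum, 7 called higher (13.7%) and 13 called lower (25.5%), and its median was −0.26. Over all genes past the minimum the shares were 16.4% and 9.25%. Myostatin, the muscle growth inhibitor encoded by Mstn, was at 27.1 CPM in MHC-II high against 1.12 CPM in MHC-II low and 24.3-fold above the MHC-II low level (18.8 to 32.0). Lefty2, a Nodal antagonist, was at 38.2 CPM in MHC-II high against 2.42 CPM in MHC-II low and 15.8-fold above the MHC-II low level (13.3 to 19.0). Eng, the endothelial TGF-beta co-receptor, was at 5.53 CPM in MHC-II high against 62.0 CPM in MHC-II low and 11.2-fold below the MHC-II low level (10.4 to 12.1). The genes with the most reads were Thbs1, an activator of latent TGF-beta (194 CPM in MHC-II high against 451 CPM in MHC-II low, called lower), Skil, a SMAD repressor (248 CPM in MHC-II high against 165 CPM in MHC-II low), and Twsg1, a chordin partner (168 CPM in MHC-II high against 321 CPM in MHC-II low), the last 2 not called. Chosen after their values were seen, 3 of the 4 latent TGF-beta binding proteins were lower, with log2 ratios of −2.05 for Ltbp1, −2.82 for Ltbp3 and −3.31 for Ltbp4, while Ltbp2 had one of −0.55. Endothelial markers summed to 83.5 CPM in MHC-II high against 557 CPM in MHC-II low and fibroblast markers to 198 CPM in MHC-II high against 1044 CPM in MHC-II low, and their part in the ratios of Eng, Thbs1 and the binding proteins was not tested. The antagonist gene Sost, also picked by value, was 6.50-fold above the MHC-II low level (5.15 to 8.31).

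Among the targets, 19 genes passed the minimum, 2 called higher (10.5%) and 6 called lower (31.6%), and the median was −0.19. The shares over all genes past the minimum were 16.4% and 9.25%. Tgfbi, a TGF-beta-induced matrix protein, was 8.71-fold below the MHC-II low level (8.46 to 8.97), and Ccn2, a matricellular target, was 7.67-fold below the MHC-II low level (7.28 to 8.09). The BMP target Id3 was at 56.0 CPM in MHC-II high against 327 CPM in MHC-II low and 5.83-fold below the MHC-II low level (5.68 to 5.99). Id1 and Id2, picked after their values were seen, were lower as well, with log2 ratios of −2.37 and −1.16. Id4 had one of −0.67 and was not called. Egr1 and Junb, immediate early genes with the most reads of this list, were at 2042 in MHC-II high against 1936 in MHC-II low and 1385 CPM in MHC-II high against 1692 CPM in MHC-II low and were not called. Dusp4, a phosphatase that limits MAP kinase signalling, was 3.35-fold above the MHC-II low level (3.27 to 3.43), and Fosl1 was the other gene called higher, at 55.5 CPM in MHC-II high against 14.6 CPM in MHC-II low. Endothelial cells and fibroblasts also express Id1, Id3, Ccn2 and Tgfbi. Their marker sums were 83.5 in MHC-II high against 557 in MHC-II low and 198 CPM in MHC-II high against 1044 CPM in MHC-II low, and their part in these ratios was not tested.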

How the data were processed

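RNA of 2 sorted mTEC populations was sequenced, 1 library each. Per the submitters' processing notes, CASAVA, Bowtie 1.0.0 and bedtools were used with mouse build mm9. The deposited tables give counts of reads per RefSeq transcript and RPKM by the authors, whose values imply totals of 213854095 reads for MHC-II high and 142330178 for MHC-II low, above the sum of the deposited counts. The libraries were poly-A selected and unstranded, per the labels. How reads with several matches were counted is not given in the sources used here.

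Each gene was represented by its most-read transcript. Counts were scaled with TMM over all genes (edgeR 4.0.16, R 4.3.3), giving scaled totals of 146702907 for MHC-II high and 52891644 for MHC-II low. A count of 3 reads equals 0.0204 CPM in MHC-II high and 0.0567 in MHC-II low. Genes needed a mean CPM of at least 1. Ratio intervals are 95% Clopper-Pearson intervals on the split of a gene's reads. With 1 library per group no count model could be tested, so no p-values are given. Names came from RefSeq GRCm38.p6 for 29352 of 29920 accessions and from GENCODE for 174, and gene order from RefSeq. Every member past the minimum is named, in full where called or among the 2 with the most reads of its role, with those under it that had at least 10 reads; Fgf22 was added. Of each wider list, the 3 genes with the most reads and the 3 with the largest log2 ratio in size are named. Alternatives were other scalings, minimums, transcripts, folds and the treatment of accessions listed in 1 file. The members and lists were chosen with earlier results of these data known. The calls were tested on simulated data. The simulated counts held counting error only, as the intervals assume, so they cannot show how far libraries of 1 group would differ.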

Additional observations from a re-analysis of the deposited data

How the results depend on the processing

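Every change of scale moves all genes together. Log2 ratios shift by 0.17 with unscaled totals of gene reads, by 0.88 with the larger totals implied by the RPKM and by −0.12 with TMM over genes past the minimum, an alternative added after seeing the data. The median of the members was then 0.01, 0.67 and −0.28, against −0.15 as reported, while that of all genes was 0.28, 1.0 and −0.01, against 0.11. With the RPKM totals 22 of 58 members were higher and 6 lower, and the wider lists had 34 higher and 11 lower of 94. Over all 16016 genes past the minimum there, 7232 were higher and 471 lower, against 2868 and 1614 of 17441 as reported. As reported, the share called higher was larger in the members than over all genes, and with the RPKM totals it was smaller. Ligands then had 13 higher and 0 lower of 25, and receptors 2 higher and 4 lower of 16. Unscaled totals gave 3453 higher and 1282 lower over all genes. The member median was −0.16 with DESeq2 1.42.0 size factors, with no minimum and with the transcript of most reads per base, and −0.21 with a mean CPM of at least 5. With no minimum the median of all genes was −0.02, with 3202 higher and 3459 lower. Under a 4-fold rule 9 of 67 members were higher and 5 lower, and in the wider lists 5 and 11 of 97. The rule's own stricter limit makes those counts smaller. The share over all genes under that rule is not given here, so whether the members differ from all genes cannot be read from these counts. The cause of the other shifts was not tested. Depth limits the 14 members under the minimum and Fgf3, Bmp5 and Bmp8a, each with under 30 reads in MHC-II low. No paired analysis was possible because each group has 1 library and the labels give no replicate numbers.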
